A study of Mus musculus with 19 samples.

Results

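Transcripts of 8 Toll-like receptors (Tlr1, Tlr2, Tlr3, Tlr4, Tlr7, Tlr8, Tlr9 and Tlr13), of the lipopolysaccharide co-receptor Cd14 and of the adaptor Myd88 were measured in epididymal white adipose tissue (eWAT), the fat pad attached to the epididymis. These 10 genes were taken by symbol from a table of 24237 genes, and each symbol matched 1 row. Bulk RNA was sequenced from 19 male C57Bl6/J mice, with 1 library per mouse. The mice were aged 9 to 10 weeks when the diets began and were fed for 17 weeks. NormMg-LFD mice (n = 4) received a low-fat diet (LFD, 10% of energy from fat) with 0.21% magnesium oxide by weight, and LowMg-LFD mice (n = 5) the same fat with 0.03% magnesium oxide. NormMg-HFD mice (n = 5) received a high-fat diet (HFD, 60% of energy from fat) with 0.21% magnesium oxide, and LowMg-HFD mice (n = 5) the HFD with 0.03%. All were wild-type animals of 1 inbred strain and 1 sex, which limits what the groups can stand for.

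Toll-like receptors bind microbial molecules and products of damaged cells. Tlr1, Tlr2 and Tlr4 sit at the cell surface, where Cd14 hands lipopolysaccharide to Tlr4, whereas Tlr3, Tlr7, Tlr8, Tlr9 and Tlr13 read nucleic acids inside endosomes. Every receptor here except Tlr3 can signal through Myd88, which leads to NF-kB and interferon regulatory factors. In adipose tissue these genes are best known from macrophages, which gather in the fat pads of obese mice, and Tlr4 is also present in adipocytes and endothelium.

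The libraries held 12986441 to 13027028 reads each, of which 86.12% to 90.41% mapped, so depth differed little between mice. Values are FPKM, fragments scaled to the length of the transcript and to the number of mapped fragments, which allow levels to be compared between genes per unit of length. The adipocyte genes Adipoq and Fabp4 were abundant in every mouse, at 1071.72 FPKM or more and 6132.15 FPKM or more, which fits the labelled tissue. Of the 19 libraries, 3 stood apart, each with more than 20 genes above 5 FPKM and over 5 times the level of every other mouse. LowMg-HFD replicate 4 had 512 such genes, led by genes of the male germ line (Prm2 at 870.54 FPKM and at most 169.77 FPKM elsewhere). NormMg-LFD replicate 3 had 36, led by genes of the exocrine pancreas (Amy2a1 at 377.95 FPKM and at most 0.54 FPKM elsewhere). LowMg-LFD replicate 4 had 23, led by genes of the epididymis (Crisp1 at 91.15 FPKM and at most 1.10 FPKM elsewhere). The study's methods describe leaving out a LowMg-HFD sample because of pancreatic tissue, but in these files 8 of 8 pancreatic markers were highest in a NormMg-LFD library, at 91.11 FPKM or more, and in the 5 LowMg-HFD libraries 7 of the 8 were at 1.95 FPKM or less, the exception being Cela1 (19.62 to 41.86 FPKM there, and 10.64 FPKM or more in every mouse). Each comparison below was therefore also made in the other 16 mice.

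The bases just before Tlr13, Tlr8 and Tlr9 are given in the strand of each gene, 5′ to 3′, from RefSeq (GRCm38). Tlr13 and Tlr8 are shown because they had the largest differences between diets, and Tlr9 because it was the lowest of the 8 receptors on the HFD. Capitals mark matches to short motifs, searched on both strands.
Tlr13, chrX:106143025-106143203, + strand: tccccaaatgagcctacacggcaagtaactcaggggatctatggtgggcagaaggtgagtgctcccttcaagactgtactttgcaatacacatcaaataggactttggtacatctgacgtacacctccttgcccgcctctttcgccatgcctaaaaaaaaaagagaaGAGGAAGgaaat
Tlr8, chrX:167264330-167264579, - strand: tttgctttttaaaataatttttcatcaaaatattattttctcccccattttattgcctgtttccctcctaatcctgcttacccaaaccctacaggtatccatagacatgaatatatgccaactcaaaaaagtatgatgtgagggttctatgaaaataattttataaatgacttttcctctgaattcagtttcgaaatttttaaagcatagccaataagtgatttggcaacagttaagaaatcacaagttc
Tlr9, chr9:106222348-106222597, + strand: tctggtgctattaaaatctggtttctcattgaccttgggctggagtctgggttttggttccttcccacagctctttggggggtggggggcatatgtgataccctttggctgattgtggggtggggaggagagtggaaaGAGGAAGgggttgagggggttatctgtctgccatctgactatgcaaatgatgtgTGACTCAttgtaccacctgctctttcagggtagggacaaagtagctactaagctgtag
The motifs were GAGGAAG, the core of the site of the myeloid factor PU.1, TGANTCA for AP-1, GGG and TTTCC with any 2 bases between them for NF-kB, and GAAA and GAAA with any 2 bases between them for interferon regulatory factors. None of these was found within another of the motifs in the sequences shown. GAGGAAG lay close to the annotated start of the Tlr13 gene (chrX:106143204), where the printed stretch was cut. The RefSeq window of Tlr13 runs on to chrX:106143274, so the motif is farther from the RefSeq start. GAGGAAG was also found once upstream of Tlr9, where TGACTCA was found as well. No motif was found in the Tlr8 window, which says only that these letters are absent there.

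RefSeq upstream windows of 250 bases were at hand for 7 of the 10 genes, with 8 windows because Tlr1 had more than 1 start. GAGGAAG was in 3 of the 8 windows (Tlr1, Tlr9 and Tlr13) and in 10.6% of 32851 windows of all genes. TGANTCA was in 1 (Tlr9; 6.75% of all windows), the NF-kB motif in 1 (Tlr3; 1.41%) and the interferon regulatory factor motif in 1 (Myd88; 2.98%). These matches are a description of the letters, not of binding. Tlr13 lies at chrX:106143204-106160493 on the + strand. Tlr8 (chrX:167242696-167264329) and Tlr7 (chrX:167304929-167330558) are neighbours on the - strand, and their facing coordinates differ by 40600.

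In both LFD groups the adaptor Myd88 and Cd14 were the most abundant of the 10 transcripts and Tlr9 and Tlr13 the least. In NormMg-LFD mice Myd88 stood at 12.9 ± 1.42 FPKM (SD, n = 4), Cd14 at 11.99 ± 2.43, Tlr4 at 8.03 ± 2.13, Tlr3 at 6.48 ± 0.680 and Tlr1 at 6.04 ± 1.92. Tlr8 followed at 3.06 ± 1.23 FPKM, Tlr2 at 3.01 ± 1.03, Tlr7 at 2.56 ± 0.238, Tlr9 at 1.30 ± 0.405 and Tlr13 at 1.25 ± 0.688. Among neighbours in this order only the steps from Cd14 to Tlr4, from Tlr1 to Tlr8 and from Tlr7 to Tlr9 were larger than the larger SD of the pair. The lowest group mean of any of these genes was 1.12 FPKM, for Tlr13 in LowMg-LFD mice. All 10 genes therefore passed the minimum of a mean of 1 FPKM over the 19 mice, which left 14268 genes to be tested.

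The order was different in NormMg-HFD mice. Cd14 came first at 31.5 ± 15.3 FPKM (SD, n = 5), then Tlr8 at 23.9 ± 5.10, Tlr13 at 19.6 ± 4.82 and Myd88 at 19.2 ± 4.26, and these neighbours differed by less than their SD. The next step, to Tlr4 at 13.1 ± 1.43 FPKM, was larger than the SD, whereas Tlr1 (12.9 ± 3.58 FPKM), Tlr7 (10.03 ± 2.64) and Tlr3 (9.65 ± 1.45) followed without such a step. Tlr2 stood at 6.66 ± 1.22 FPKM and Tlr9 at 2.62 ± 0.743, each lower than its neighbour by more than the SD. In LowMg-HFD mice Myd88 was again first at 14.5 ± 1.62 FPKM, followed by Cd14 at 12.8 ± 3.38 and Tlr8 at 10.2 ± 4.33. From Myd88 down to Tlr2 (4.01 ± 1.01 FPKM) no neighbours in that order differed by more than the larger SD, and only the step down to Tlr9 (1.63 ± 0.437 FPKM) did.

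**Figure D1:**
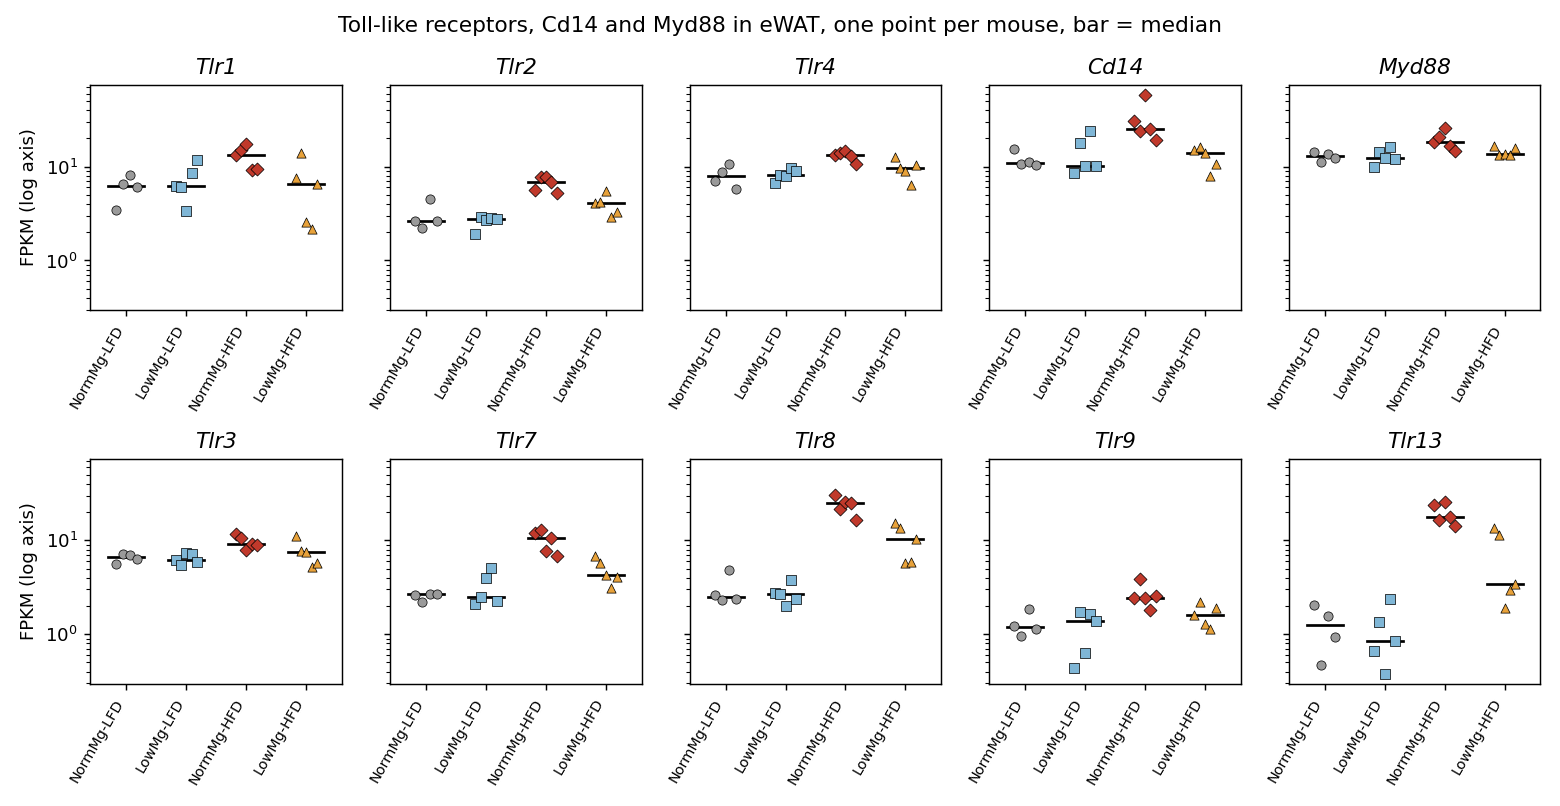
FPKM (log axis) of the 8 receptors, Cd14 and Myd88 in each mouse of the 4 diet groups, with 1 point per mouse and a bar at the group median. Tlr8 and Tlr13 sit above both LFD groups in all 5 NormMg-HFD mice (16.68 FPKM or more and 14.26 FPKM or more), and the LowMg-HFD mice lie lower and spread more widely.

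The comparison of HFD with LFD at normal Mg asks how the fat content of the diet bears on these transcripts. Of the 10 genes, 9 were higher in NormMg-HFD than in NormMg-LFD mice by the limma test (adjusted p under 0.05 over all genes), led by the endosomal receptors Tlr13, Tlr8 and Tlr7, and Tlr1 was the exception. Among all 14268 genes tested, 17.2% were called higher. In bulk tissue, fewer cells of a type and less RNA per cell cannot be told apart. Macrophage markers rose in the same comparison, in 7 of 8 genes, and their part in these differences was not tested. Median log2 fold change was 0.97 over the 10 genes and 0.0059 over all genes.

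Tlr13, a mouse receptor for bacterial ribosomal RNA with no human counterpart, was at 2.03, 0.47, 1.57 and 0.93 FPKM in the 4 NormMg-LFD mice. In the 5 NormMg-HFD mice it was at 23.58, 16.49, 25.62, 17.98 and 14.26 FPKM. The groups were far apart, with a 15.7-fold difference between means. Its log2 fold change, taken on FPKM + 1 as for all fold changes here, was 3.22 (SE 0.40, 95% CI 2.37 to 4.06, limma adjusted p = 1.1e-05). Because the added 1 is about as large as the LFD level, this scale understates the change, and a pseudocount of 0.1 gave 4.00.

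Tlr8, which senses breakdown products of RNA, was at 2.62, 2.32, 4.89 and 2.39 FPKM in NormMg-LFD mice and at 30.46, 21.76, 25.48, 25.31 and 16.68 FPKM in NormMg-HFD mice. Each HFD value was above the highest LFD value, and the means differed 7.84-fold (log2 fold change 2.64, SE 0.26, adjusted p = 3.2e-06). Tlr7, a receptor of single-stranded RNA and the chromosomal neighbour of Tlr8, was at 2.65, 2.20, 2.70 and 2.67 FPKM on the LFD and at 12.07, 12.91, 7.78, 10.53 and 6.84 FPKM on the HFD. Its groups did not overlap either, and the 3.92-fold difference of means gave a log2 fold change of 1.60 (SE 0.22, adjusted p = 3.2e-05).

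The other endosomal receptors changed less. Tlr3, which binds viral-type duplex RNA and signals through Ticam1 and not Myd88, ranged from 5.59 to 7.09 FPKM in NormMg-LFD mice and from 7.95 to 11.61 FPKM in NormMg-HFD mice. The groups did not overlap, with a log2 fold change of 0.50 (SE 0.16, adjusted p = 0.026). The call of Tlr3 held in 21 of 28 alternatives. It was lost, for instance, with median centring, with quantile normalization (adjusted p = 0.080, the highest) and without NormMg-LFD replicate 2 or 5 or NormMg-HFD replicate 1 or 2. Tlr9, the receptor for unmethylated CpG DNA, ranged from 0.95 to 1.88 FPKM on the LFD and from 1.81 to 3.84 FPKM on the HFD. One HFD mouse fell within the LFD range, and the log2 fold change of 0.65 (SE 0.23) passed the threshold narrowly (adjusted p = 0.042), and the call held in 15 of 27 alternatives. Tlr9 no longer passed in the 16 mice (adjusted p = 0.082), nor without NormMg-LFD replicate 3 alone (0.117).

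At the cell surface Cd14 was at 15.60, 10.60, 11.29 and 10.47 FPKM in NormMg-LFD mice and at 30.56, 24.25, 57.80, 25.42 and 19.28 FPKM in NormMg-HFD mice. All HFD values were above the LFD values, a 2.62-fold difference of means (log2 fold change 1.23, SE 0.30, adjusted p = 0.0049). The highest value came from NormMg-HFD replicate 3, a library that also had the highest mean of the neutrophil markers, at 1.88 on the log2(FPKM + 1) scale against 0.53 to 0.99 in the other mice. Without that mouse Cd14 was still called, at a log2 fold change of 0.99 (adjusted p = 0.014). Of the 6 neutrophil markers 2 were tested. Csf3r was called higher in the same comparison (log2 fold change 1.05, adjusted p = 0.043, up to 18.07 FPKM in a NormMg-HFD mouse), Cxcr2 did not pass (0.43, adjusted p = 0.19), and the defining gene Ly6g was at 0 in all mice but 1, in which it reached 0.37 FPKM. The part of these cells in the Cd14 difference was not tested.

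Tlr2, the receptor of bacterial lipopeptides, was at 2.66, 2.24, 4.53 and 2.62 FPKM in NormMg-LFD mice and at 5.65, 7.85, 7.82, 6.78 and 5.20 FPKM in NormMg-HFD mice. The groups did not overlap (log2 fold change 0.95, SE 0.18, adjusted p = 0.00058). Tlr4, the lipopolysaccharide receptor, ranged from 5.74 to 10.64 FPKM on the LFD and from 10.77 to 14.56 FPKM on the HFD, with a log2 fold change of 0.67 (SE 0.17, adjusted p = 0.0064). Its ranges just failed to touch. Tlr1, the partner of Tlr2, ranged from 3.47 to 8.12 FPKM and from 9.21 to 17.39 FPKM, and its wide spread left a log2 fold change of 0.99 (SE 0.39) short of the threshold (adjusted p = 0.067). Tlr1 passed in 3 of 28 alternatives, when only these groups were fitted (adjusted p = 0.0092) and without LowMg-HFD replicate 2 or 4 (0.039 for the latter). Tlr1 shares long stretches of near-identical sequence with Tlr6, and between 13.53% and 16.52% of reads mapped to several places, so the division of reads between these genes is uncertain.

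The adaptor Myd88 ranged from 11.15 to 14.27 FPKM in NormMg-LFD mice and from 14.64 to 25.67 FPKM in NormMg-HFD mice. Its ranges were next to each other without overlap, with a log2 fold change of 0.52 (SE 0.15, adjusted p = 0.013). Altogether 9 of the 10 genes had groups that did not overlap, all but Tlr9, and 15.8% of all genes tested were higher with no overlap. In the 16 mice 8 of the 10 genes were called (27.6% of all genes, in either direction), and Myd88 was at adjusted p = 0.036 there. Without NormMg-LFD replicate 3 alone 7 were called, with Myd88 at 0.051.

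The comparison of LowMg-HFD with NormMg-HFD mice asks how the Mg content of the diet bears on these transcripts on the HFD. According to the study, LowMg-HFD mice also had a lower body weight and less eWAT. Differences that go with weight and those that go with Mg deficiency cannot be told apart in this design. All 10 genes had lower means in LowMg-HFD mice, and 5 passed the test: Tlr13, Tlr8, Tlr7, Cd14 and Tlr2. Among all genes tested, 7.75% (1106 genes) were called lower, a count that fell to 637 without NormMg-HFD replicate 3 and to 708 and 727 without LowMg-HFD replicate 3 and 5. Macrophage markers were lower as well, in 7 of 8 genes, and their part in the differences was not tested. The median log2 fold change of the 10 genes was -0.77, beside 0.0013 over all genes.

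Tlr8 was at 15.43, 13.43, 5.81, 5.96 and 10.39 FPKM in the LowMg-HFD mice, and each was below the lowest NormMg-HFD mouse (16.68 FPKM). Its mean was 2.35-fold lower (log2 fold change -1.22, SE 0.24, adjusted p = 0.0051). Tlr13 was at 13.48, 11.36, 1.89, 2.97 and 3.44 FPKM, also with no overlap with the NormMg-HFD mice. Of the LowMg-HFD mice 2 were just under the NormMg-HFD range and 3 were within or near the LFD range. The mean of Tlr13 was 2.96-fold lower (log2 fold change -1.70, SE 0.38, adjusted p = 0.0084). Tlr7 was at 6.84, 5.73, 4.24, 3.14 and 4.06 FPKM, and its highest mouse equalled the lowest NormMg-HFD mouse (log2 fold change -0.93, SE 0.21, adjusted p = 0.0088).

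Cd14 was at 15.07, 16.04, 14.07, 7.90 and 10.67 FPKM in the LowMg-HFD group, lower than in each NormMg-HFD mouse and within the range of the LFD mice in all but 1. The mean was 2.47-fold lower (log2 fold change -1.17, SE 0.28, adjusted p = 0.013), and without NormMg-HFD replicate 3 the log2 fold change was -0.93 (adjusted p = 0.041). Tlr2 was at 4.14, 4.25, 5.50, 2.89 and 3.29 FPKM, with 1 mouse inside the NormMg-HFD range (log2 fold change -0.62, SE 0.17, adjusted p = 0.024). The call of Tlr2 rested on single mice. It was lost without NormMg-HFD replicate 2 (adjusted p = 0.059), 3 (0.075) or 4 (0.054), and without LowMg-HFD replicate 4 (0.054) or 5 (0.067).

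The 5 other genes did not pass. Tlr1 ranged from 2.18 to 14.08 FPKM in LowMg-HFD mice. Relative to the mean, this was the widest spread of the 8 receptors apart from Tlr13. Tlr1 differed by a log2 fold change of -1.07 (SE 0.36, adjusted p = 0.067). For Tlr4 the log2 fold change was -0.42 (95% CI -0.76 to -0.088, adjusted p = 0.099), for Tlr3 -0.37 (adjusted p = 0.14), for Myd88 -0.36 (adjusted p = 0.11) and for Tlr9 -0.46 (adjusted p = 0.20). Tlr1 passed in 2 of 28 alternatives, with the minimum the study describes and without LowMg-HFD replicate 2 (adjusted p = 0.012). Tlr3 and Tlr4 passed without LowMg-HFD replicate 1, and Myd88 without NormMg-HFD replicate 5. The HFD groups did not overlap for Tlr8, Tlr13 and Cd14 and overlapped for the other 7 genes, and 6.6% of all genes tested were lower with no overlap. In the 16 mice 4 of the 10 genes were called (9.78% of all genes, in either direction), with Tlr2 lost (adjusted p = 0.060), and the log2 fold changes were -1.54 for Tlr13, -1.07 for Tlr8, -1.03 for Cd14 and -0.82 for Tlr7.

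**Figure D2:**
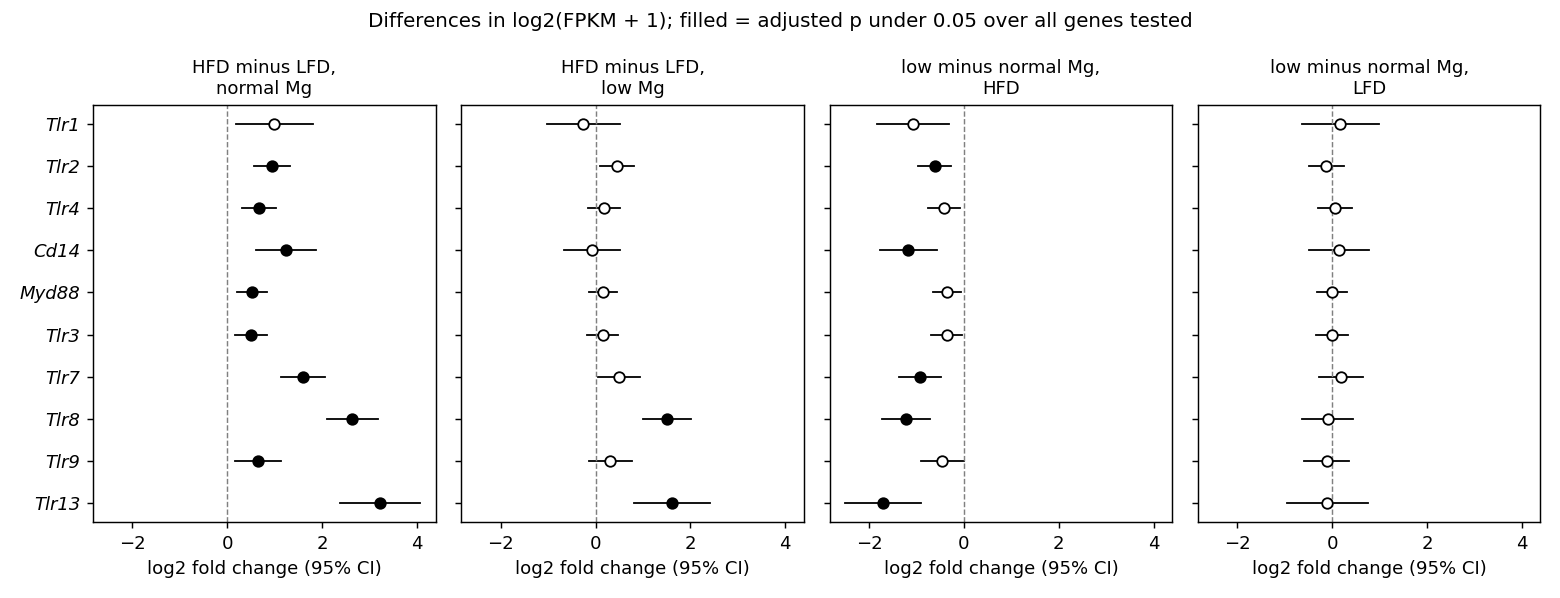
Log2 fold changes of FPKM + 1 (points) with 95% confidence intervals (lines) for the 8 receptors, Cd14 and Myd88, with a panel per comparison and filled points where the adjusted p over all genes tested was under 0.05. With normal Mg 9 of the 10 genes were higher on the HFD, on the HFD 5 were lower with low Mg, and 2 were higher on the HFD with low Mg.

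The comparison of HFD with LFD at low Mg called 2 of the 10 genes. Tlr8 and Tlr13 were higher in LowMg-HFD than in LowMg-LFD mice, and the other 8 genes did not pass. Among all genes tested, 7.19% (1026 genes) were called higher, a share that rested on the scaling, with 357 genes after median centring and 450 after quantile normalization, and 338 when only these groups were fitted. Without LowMg-LFD replicate 1, LowMg-HFD replicate 1 or LowMg-HFD replicate 2 it was 543, 598 or 543 genes. Tlr8 was at 2.75, 2.71, 1.99, 3.80 and 2.40 FPKM in LowMg-LFD mice, all below the LowMg-HFD mice (5.08% of all genes tested were higher with no overlap), and its mean was 3.74-fold higher on the HFD (log2 fold change 1.51, adjusted p = 0.0015). Tlr13 was at 0.67, 1.36, 0.38, 2.35 and 0.84 FPKM in LowMg-LFD mice, and 4 of the 5 LowMg-HFD mice were above all of them (log2 fold change 1.62, SE 0.38, adjusted p = 0.012). The call of Tlr13 was lost when only these groups were fitted (adjusted p = 0.077).

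Among the rest, Tlr7 had a log2 fold change of 0.49 (adjusted p = 0.17) and Tlr2 of 0.45 (adjusted p = 0.11). Cd14 was at 14.2 ± 6.68 FPKM in LowMg-LFD and 12.8 ± 3.38 FPKM in LowMg-HFD mice (log2 fold change -0.076, adjusted p = 0.91). Tlr1 had a log2 fold change of -0.26 (95% CI -1.02 to 0.51), an interval that allows changes either way. The median of the 10 genes was 0.25, beside 0.11 over all genes, so small positive values here are near the shift of all genes. In the 16 mice Tlr7 was called too (log2 fold change 0.74, adjusted p = 0.030), which made 3 of 10 (9.87% of all genes, in either direction), and macrophage markers were higher in 4 of 8 genes in all mice, with their part in the result not tested.

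On the LFD no difference between low and normal Mg was detected in these transcripts. None of the 10 genes and none of the 14268 tested passed limma's adjusted threshold, 0.0% of genes, while 830 genes (5.82%) had an unadjusted p under 0.05. The log2 fold changes of the 10 genes lay between -0.12 and 0.19. Cd14 ranged from 8.48 to 24.09 FPKM in LowMg-LFD mice, and its highest value came from replicate 4, the library with epididymal transcripts.

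Whether the Mg effect differed between the fat diets was tested with an interaction term. No gene of the 10 passed limma's adjusted threshold, nor did any of 14268 genes (0.0%), although 2374 (16.6%) had an unadjusted p under 0.05. The count over all genes rested on single mice and on the genes tested. It was 331 without LowMg-HFD replicate 2, 297 without LowMg-HFD replicate 1, 132 without NormMg-HFD replicate 5, 104 of 8336 genes with the minimum the study describes and 39 with quantile normalization. All 10 interaction estimates were negative, with a median of -0.81 beside 0.072 over all genes. The estimates were -1.12 for Tlr7 (adjusted p = 0.085), -1.13 for Tlr8 (0.12), -1.31 for Cd14 (0.12), -1.60 for Tlr13 (0.15) and -1.25 for Tlr1 (0.25). A difference of the Mg effect between HFD and LFD was thus not shown for any of these genes, and Tlr7 passed only without LowMg-HFD replicate 1 (adjusted p = 0.044).

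The make-up of the transcripts of these 8 receptors shifted with the diets. Tlr5, Tlr6, Tlr11 and Tlr12 were left out of the sum, at means over all mice of 5.17, 2.12, 0.48 and 0.65 FPKM. The shares are therefore not those of all Toll-like receptors in the tissue. The 8 receptors summed to 31.7 ± 6.51 FPKM (SD, n = 4) in NormMg-LFD, 32.7 ± 5.82 in LowMg-LFD, 98.5 ± 15.2 in NormMg-HFD and 51.0 ± 18.9 in LowMg-HFD mice. Tlr8 and Tlr13 together made up 13.4% and 11.6% of the sum on the LFD with normal and low Mg, 44.0% in NormMg-HFD and 31.3% in LowMg-HFD mice. Every NormMg-HFD mouse (37.3% to 48.0%) and every LowMg-HFD mouse (20.3% to 39.6%) was above the NormMg-LFD mice (at most 17.1%) and the LowMg-LFD mice (at most 15.0%). Tlr1, Tlr3 and Tlr4 went the other way in share, with 64.9%, 67.1%, 36.3% and 47.1% of the sum in the same order of groups. Endosomal receptors held 46.6% and 44.9% of the sum on the LFD, 66.8% in NormMg-HFD and 59.5% in LowMg-HFD mice. Tlr8 and Tlr13 are the receptors with the largest differences for fat at normal Mg. The larger share of this pair on the HFD follows from those differences and is no separate result. Shares are tied to each other, so a larger share of Tlr8 and Tlr13 lowers the rest, and no test was run on them.

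**Figure D3:**
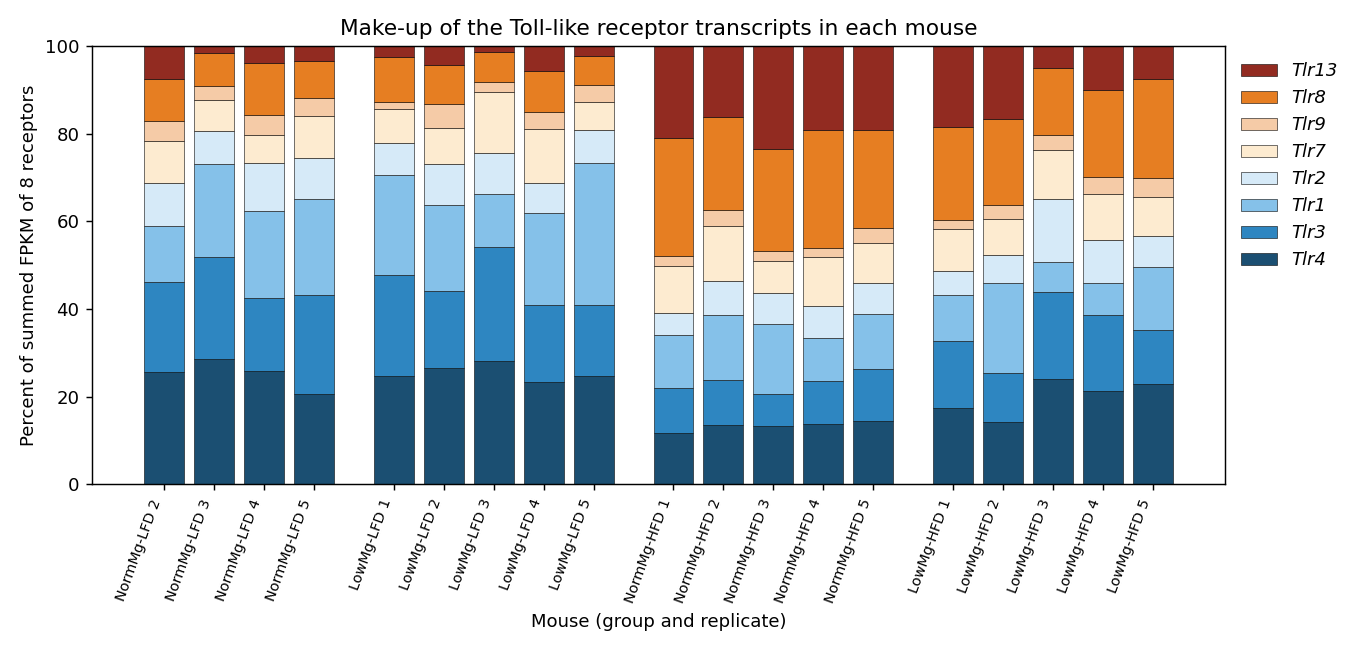
Share of each of the 8 receptors in their summed FPKM (percent), with 1 stacked bar per mouse in the order of the diet groups. Tlr8 and Tlr13 together take 37.3% to 48.0% of the bar in NormMg-HFD mice and at most 17.1% in LFD mice.

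The mean of 8 macrophage markers on the log2(FPKM + 1) scale was 4.64 ± 0.16 (SD, n = 4) in NormMg-LFD, 4.70 ± 0.36 in LowMg-LFD, 6.43 ± 0.29 in NormMg-HFD and 5.39 ± 0.51 in LowMg-HFD mice. The NormMg-HFD mice (6.04 to 6.74) were above all others, and the LowMg-HFD mice (4.78 to 5.99) reached from the LFD range to just under the NormMg-HFD range. The lysosomal glycoprotein Cd68 averaged 30.7, 33.5, 305 and 117 FPKM and the macrophage surface receptor Adgre1 13.9, 15.1, 113 and 39.9 FPKM in the 4 groups, in the same order. All macrophage markers but Mertk were called higher on the HFD with normal Mg, and lower on the HFD when Mg was low. Of the 7 adipocyte markers, 4 were called lower on the HFD with normal Mg and 1, the leptin gene Lep, higher (353.7 against 1138 FPKM, log2 fold change 1.69, adjusted p = 0.00035), and 3 were called higher with low Mg on the HFD. With low Mg on the HFD, 3 of 4 mast cell markers were lower. The mean of 6 dendritic cell markers was 1.48, 1.55, 2.18 and 1.97 in the same order of groups, led by the integrin Itgax, which was higher on the HFD at normal Mg (3.91, adjusted p = 4.7e-06) and lower with low Mg on the HFD (-1.53, adjusted p = 0.021), whereas Zbtb46 and Siglech were lower on the HFD at normal Mg. Of 4 stromal progenitor markers, 1 passed in each of these comparisons, the collagen gene Col1a1 (1.48, adjusted p = 2.4e-05, and -1.22, adjusted p = 0.0030). Of 5 endothelial markers, Kdr was lower on the HFD at normal Mg (-0.41, adjusted p = 0.048) and higher with low Mg on the HFD (0.54, adjusted p = 0.016), and Cdh5 was higher on the HFD at low Mg (0.29, adjusted p = 0.037). What these cell type markers contribute to the receptor differences was not tested.

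Set against the macrophage mean, the genes fell into different patterns. The difference of Tlr13 from the macrophage mean, on the log2(FPKM + 1) scale, was -3.53 in NormMg-LFD, -3.69 in LowMg-LFD, -2.10 in NormMg-HFD and -2.76 in LowMg-HFD mice, so Tlr13 was closest to the markers on the HFD. Tlr8 had the same order, at -2.67, -2.82, -1.82 and -1.996. Tlr7 kept nearly the same distance in all groups, at -2.82, -2.69, -3.00 and -2.89. Tlr4 was farther below the markers in NormMg-HFD mice, at -1.50, -1.50, -2.62 and -2.001, and Myd88 likewise, at -0.85, -0.91, -2.12 and -1.44. Tlr3, Tlr2, Tlr9, Cd14 and Tlr1 were also lower against the markers in NormMg-HFD than in NormMg-LFD mice. These differences are descriptions, with no test.

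**Figure D4:**
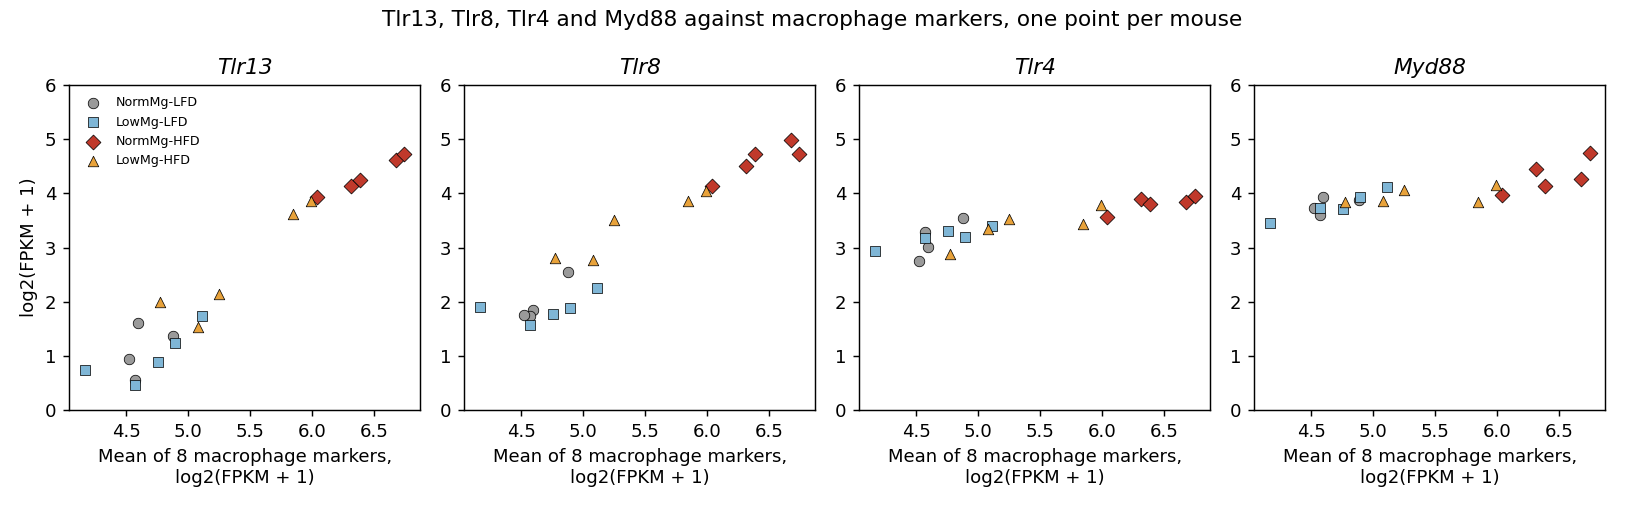
Tlr13, Tlr8, Tlr4 and Myd88 (y axis, log2(FPKM + 1)) against the mean of 8 macrophage markers (x axis, log2(FPKM + 1)), with 1 point per mouse and a colour and symbol per diet group. Tlr13 and Tlr8 climb steeply along the axis, from LFD mice at the left to NormMg-HFD mice at the right (macrophage mean 6.04 to 6.74), and Tlr4 and Myd88 climb less.

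Mice also differed within their groups. After the group mean was taken from each value, Tlr13 followed the macrophage mean most closely over the 19 mice (Pearson r 0.85, Spearman rho 0.89, r 0.80 without the 2 mice farthest from the median of the markers). Tlr8 (r 0.82), Tlr4 (r 0.77), Cd14 (r 0.74) and Tlr1 (r 0.70) came next, and Tlr2 had the lowest r with that mean (0.48). Dendritic cell markers had a higher r than macrophage markers for Tlr4 (0.79), Tlr7 (0.71 against 0.64) and Tlr3 (0.64), and T cell and stromal progenitor markers for Tlr9 (0.68 and 0.65 against 0.57) and Tlr2 (0.56 and 0.53), with mast cell markers also higher for Tlr2 (0.555). Without the 2 mice farthest from the median of each list, the order of stromal progenitor and macrophage markers turned for Tlr9 (0.45 and 0.60). Dendritic cell and macrophage markers were then close to each other for Tlr7 (0.51 and 0.50). For Tlr3 with the macrophage mean, r was 0.53 with all mice and 0.16 without those 2, so that relation rested on them. The genes were measured in the same libraries, so shared tissue make-up enters each of these values, and they are given as descriptions. Among the 45 pairs of the 10 genes every r was positive, from 0.063 for Tlr3 with Myd88 to 0.83 for Tlr8 with Tlr13, with a median of 0.48. Cd14 and Myd88 (r 0.79) and Tlr3 and Tlr7 (r 0.75) were the next closest pairs.

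Over all genes tested, the 3 transcripts with the highest r to each gene in the same group-centred values were also listed. For Tlr13 these were Basp1 (r 0.976), Cd68 (0.943) and the scavenger receptor Msr1 (0.939), and for Tlr8 Fblim1 (0.917), Wfs1 (0.898) and the macrophage perforin Mpeg1 (0.885). The closest to Tlr4 were Kctd12 (0.907), Clec4a3 (0.902) and Ogt (0.865), and to Cd14 Gm15280 (0.863), the complement gene C1qb (0.852) and Sbno2 (0.851). Tlr1 was nearest to the ubiquitin ligase March1 (0.897), Tlr7 to Nucb1 (0.871), Tlr9 to the NF-kB inhibitor Tnfaip3 (0.887) and Myd88 to Srprb (0.875). Tlr2 (nearest genes Zfp710, Elf1 and Notch2, 0.838 to 0.842) and Tlr3 (Adcy9, H2-K2 and Tfe3, 0.776 to 0.779) had weaker nearest neighbours. With 14268 genes and 19 mice, high values of r can be found for any gene, so the lists name likeness only.

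Beyond these 10 genes, 74 other genes of Toll-like receptor signalling were in the table, in 8 lists by role, and 65 of them were tested. With normal Mg 32 were higher on the HFD and 1 lower (17.2% and 9.67% of all genes tested), and 31 were higher with no overlap (15.8% of all genes tested). On the HFD, low Mg went with 17 lower and 1 higher gene (7.75% and 2.99% of all genes tested), and at low Mg 14 were higher on the HFD (7.19% of all genes tested). The 18 calls for Mg on the HFD fell to 11 without NormMg-HFD replicate 1 or 3. The 14 calls for fat at low Mg fell to 7 with median centring or quantile normalization, to 6 when only these groups were fitted, to 7 without LowMg-LFD replicate 1 or LowMg-HFD replicate 1, to 9 without LowMg-LFD replicate 2 and to 6 without LowMg-HFD replicate 2. The median log2 fold changes were 0.47, -0.27 and 0.29, beside 0.0059, 0.0013 and 0.11 over all genes. Neither the comparison on the LFD nor the interaction called any of the 65 by limma. The macrophage markers moved in the same comparisons as these lists, and their part was not tested.

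Among accessory and trafficking proteins, 6 of 8 were higher on the HFD with normal Mg (17.2% of all genes tested). In LowMg-HFD mice 4 of 8 were lower (7.75% of all genes tested). Unc93b1, the chaperone that carries endosomal receptors out of the endoplasmic reticulum, averaged 45.2 FPKM in NormMg-LFD, 125 in NormMg-HFD and 69.4 in LowMg-HFD mice (low against normal Mg on the HFD: log2 fold change -0.89, adjusted p = 0.0046). Cd180, a homologue of Tlr4, averaged 5.37, 24.9 and 12.6 FPKM (log2 fold change -1.06, adjusted p = 0.011), and its partner Ly86 averaged 10.4, 37.6 and 17.4 FPKM (log2 fold change -1.07, adjusted p = 0.0030). The chaperone Hsp90b1 was also lower (log2 fold change -0.40, adjusted p = 0.018). Ly96, which binds lipopolysaccharide together with Tlr4, passed neither comparison, with log2 fold changes of 0.35 for fat at normal Mg (adjusted p = 0.33) and -0.49 for Mg on the HFD (adjusted p = 0.21).

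Of the other adaptors, Ticam2, which links Tlr4 to Ticam1, was higher on the HFD at normal Mg and lower in LowMg-HFD mice (log2 fold changes 1.23 and -0.71, adjusted p = 0.00010 and 0.017). Ticam1 was higher on the HFD (0.69, adjusted p = 0.0036), with a log2 fold change of -0.36 for Mg on the HFD (adjusted p = 0.14). Tirap, the bridge between Myd88 and surface receptors, had log2 fold changes of 0.054 and 0.092 (adjusted p = 0.79 and 0.69), and was called higher on the HFD at low Mg (0.42, adjusted p = 0.041), a call that held in 10 of 27 alternatives. Of the other receptors 2 of 4 were tested. Tlr6, the partner of Tlr2, was higher on the HFD at normal Mg (log2 fold change 1.05, adjusted p = 0.033, and 1.55 with a pseudocount of 0.1), a call that held in 18 of 27 alternatives and was lost without NormMg-LFD replicate 3 (adjusted p = 0.12). The flagellin receptor Tlr5 was the 1 pathway gene that was higher in LowMg-HFD mice (6.11 ± 0.83 against 3.98 ± 0.90 FPKM, log2 fold change 0.52, adjusted p = 0.048). The call of Tlr5 held in 9 of 27 alternatives and was lost, for instance, without NormMg-HFD replicate 3 (adjusted p = 0.14).

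Among 14 kinases and ligases, 5 were higher and 1 lower on the HFD at normal Mg (17.2% and 9.67% of all genes tested). In LowMg-HFD mice 2 were lower (7.75% of all genes tested). With so few genes per role, counts of 1 or 2 say little beside these shares. Irak1, a kinase that binds Myd88 complexes, was the one lower on the HFD at normal Mg (log2 fold change -0.29, adjusted p = 0.031). Ikbke, a kinase upstream of interferon regulatory factors, was higher on the HFD and lower with low Mg (1.30 and -0.78, adjusted p = 2.2e-05 and 0.0065), and Tab1 was lower with low Mg (-0.46, adjusted p = 0.045). Irak4, which Myd88 recruits first, was higher on the HFD (0.54, adjusted p = 0.0089), with a log2 fold change of -0.39 for Mg on the HFD (adjusted p = 0.076). Of 10 transcription factors 4 were higher on the HFD and 2 lower with low Mg, namely Nfkb2 (0.92 and -0.52, adjusted p = 0.013 for Mg) and Irf5 (0.67 and -0.50, adjusted p = 0.030 for Mg). The immediate early gene Fos was higher on the HFD (1.81, adjusted p = 0.00080), with -0.86 for Mg on the HFD (adjusted p = 0.11).

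Inhibitors of the pathway were higher on the HFD in 4 of 9 genes (17.2% of all genes tested) and lower with low Mg in 1 (7.75%). That gene was Il1rl1, a receptor of interleukin-33 (log2 fold changes 0.49 and -0.70, adjusted p = 0.030 and 0.0077). Tnip1 and Tnfaip3, which restrain NF-kB, were higher on the HFD (1.02 and 0.53, adjusted p = 0.00072 and 0.025), with -0.42 and -0.050 for Mg on the HFD (adjusted p = 0.16 and 0.87). Of 11 target genes tested, 6 were higher on the HFD and 4 lower with low Mg, beside 17.2% and 7.75% of all genes tested. Tnf, Il6, Il10, Il12b and Ptgs2 were too low to be tested, at means of 0.93, 0.33, 0.38, 0.087 and 0.65 FPKM. Ifnb1 was absent from the 24237 genes. In NormMg-HFD replicate 3 Cxcl2 was at 30.73 FPKM and Il1b at 26.41 FPKM, against at most 4.21 and 1.97 FPKM in the other mice. The acute-phase protein Saa3 averaged 4.42 FPKM in NormMg-LFD, 86.3 in NormMg-HFD and 24.5 in LowMg-HFD mice (log2 fold change for Mg -1.93, adjusted p = 0.013), and the monocyte chemokine Ccl2 4.93, 54.2 and 23.1 FPKM (-1.14, adjusted p = 0.0082). The chemokines Ccl3 (-1.60, adjusted p = 0.0083) and Cxcl10 (-1.01, adjusted p = 0.043) were lower with low Mg too.

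Endogenous ligands were higher on the HFD in 4 of 8 genes and lower with low Mg in 3, beside 17.2% and 7.75% of all genes tested. S100a9 was at 59.99 FPKM in NormMg-HFD replicate 3 and at most 5.42 FPKM in the other mice. S100a8, a calcium-binding protein of myeloid cells that can engage Tlr4, averaged 4.36 FPKM in NormMg-LFD, 31.2 in NormMg-HFD and 8.44 in LowMg-HFD mice (log2 fold change for Mg -1.83, adjusted p = 0.0082). The matrix proteins Bgn and Fn1 were higher on the HFD (1.05 and 0.79, adjusted p = 3.6e-05 and 0.014) and lower with low Mg (-0.71 and -0.81, adjusted p = 0.0052 and 0.020). Tnc, also a matrix protein, was higher on the HFD (1.14, adjusted p = 0.0025), with -0.58 for Mg on the HFD (adjusted p = 0.13). In the 16 mice 30 pathway genes were called for fat at normal Mg, 15 for Mg on the HFD and 15 for fat at low Mg, beside 27.6%, 9.78% and 9.87% of all genes, in either direction. Several of the calls named above did not hold throughout. For Mg on the HFD, Cxcl10 held in 12 of 27 alternatives, Tab1 in 13 of 27, Irf5 in 21 of 28, Hsp90b1 in 24 of 28, Ticam2 in 24 of 27 and Fn1 in 25 of 28. Without NormMg-HFD replicate 3 alone Cxcl10 was at adjusted p = 0.13, Irf5 at 0.096, Hsp90b1 at 0.059, Ticam2 at 0.059 and Fn1 at 0.058, and without LowMg-HFD replicate 5 Tab1 was at 0.12. For fat at normal Mg, Il1rl1 held in 19 of 27 alternatives (adjusted p = 0.098 without NormMg-LFD replicate 4), Tnfaip3 in 23 of 27 (0.079 without NormMg-LFD replicate 2) and Fn1 in 27 of 28, and Irak1 in 22 of 28 (0.11 without NormMg-LFD replicate 5).

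**Figure D5:**
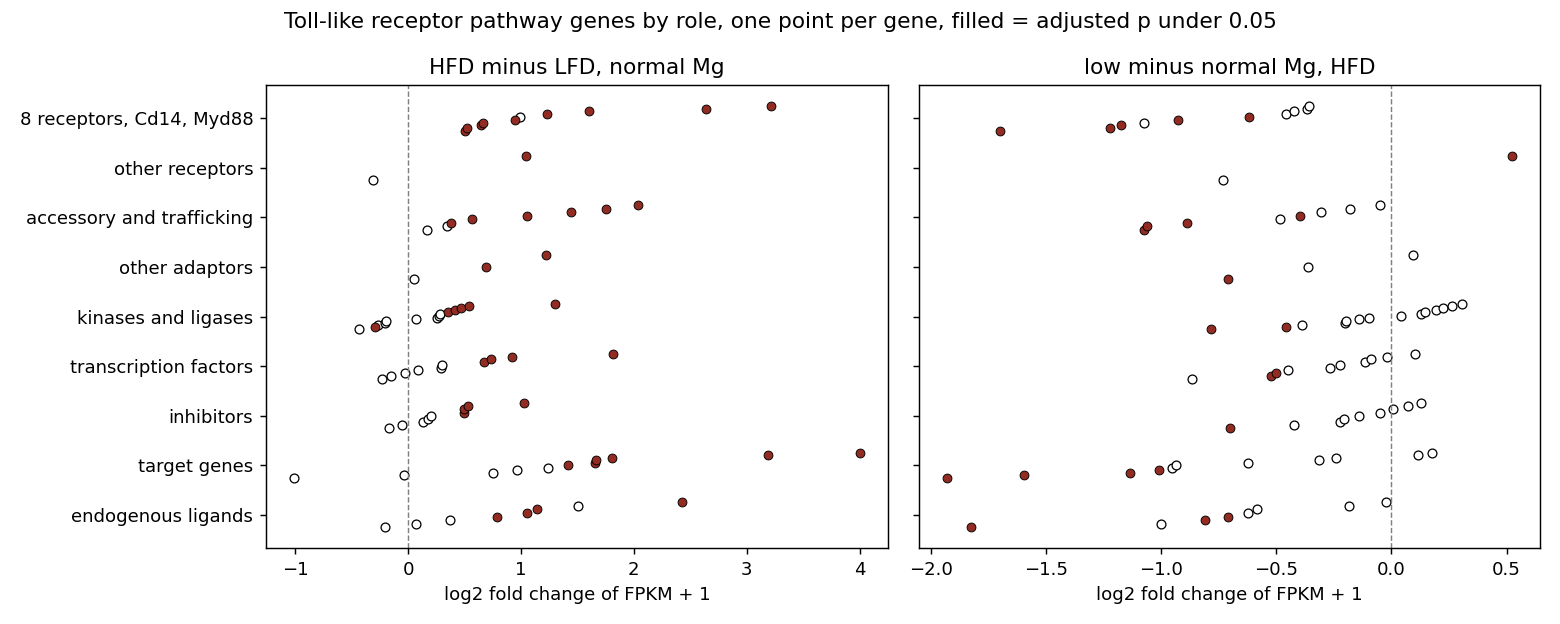
Log2 fold changes of FPKM + 1 (x axis) for the pathway genes that were tested, with 1 point per gene, a line per role and filled points where the adjusted p was under 0.05. Filled points lie to the right for HFD against LFD at normal Mg in 32 genes and to the left for low against normal Mg on the HFD in 17 genes.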

How the data were processed

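RNA of eWAT from 19 mice was sequenced as 50-base single-end reads. According to the study's methods and the submitters' processing notes, reads were aligned with HISAT and Bowtie2 to GRCm38 and quantified with RSEM 1.2.31. The authors deposited FPKM per gene and mouse, which are normalised to gene length and mapped fragments, and no read counts were used here. Each mouse is a separate animal, and groups came from the sample titles. Of 24250 rows, 12 annotation fragments and 1 gene with a cell that was not a number were left out, and 26 symbols turned into dates were restored by their identifiers. limma 3.58.1 (R 4.3.3, intensity trend, two-sided) was fitted to log2(FPKM + 1) of genes with a mean of at least 1 FPKM over the 19 mice, as 4 group means, with Benjamini-Hochberg adjustment over 14268 genes and a threshold of 0.05. The fit was tested on simulated data. Read totals and percentages of mapped and multi-mapped reads per library were deposited by the authors. Library depth was nearly equal, and the FPKM table gives no counts from which to set an interval per gene.

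The 10 genes, the pathway lists and the cell type markers were chosen with earlier results of these data known. Named pathway genes were, per list, up to 4 called genes with the largest change for Mg on the HFD and up to 2 for fat at normal Mg, with Ly96, Tirap, Ticam1 and Irak4 always named, and Irak1 was added after its value was seen. In all, 28 alternatives were tried. Of these, 19 left out 1 mouse each and the fit of 16 mice was chosen after seeing the data. The germ line genes that mark 1 library were named after seeing the data too. Figures were drawn with matplotlib 3.10.9.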

Additional observations from a re-analysis of the deposited data

Results flagged for a closer look

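Of 40 combinations of gene and group, 4 had a mouse far from the others of its group, where chance flags about 1 in 20. Tlr2 was at 1.93 FPKM in LowMg-LFD replicate 1, below the other 4 mice of its group. Tlr7 was at 2.20 FPKM in NormMg-LFD replicate 3, the library with pancreatic transcripts, below 2.65 to 2.70 FPKM in the other mice. Tlr8 was at 4.89 FPKM in NormMg-LFD replicate 4, above 2.32 to 2.62 FPKM in the others, and still below every HFD mouse. Cd14 was at 15.60 FPKM in NormMg-LFD replicate 2, above 10.47 to 11.29 FPKM in the others.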

How the results depend on the processing

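Over the 28 alternatives between 6 and 10 of the 10 genes were called for fat at normal Mg and 4 to 7 for Mg on the HFD. Tlr13, Tlr8, Tlr7 and Cd14 were called in both comparisons wherever they were tested. The minimum the study describes (8 FPKM) tested 7 of the 10 genes, without Tlr2, Tlr7 and Tlr9. Tlr13 passed for fat at low Mg with all alternatives except the fit of these groups only, which left 1 of the 10 genes. Pathway genes for fat at normal Mg fell from 33 to 21 with the study's minimum (40 tested). For fat at low Mg they fell from 14 to 7 with median centring, 7 with quantile normalization and 6 with these groups only, and were 6 to 15 without single mice. For Mg on the HFD they were 18, and 11 to 20 without single mice (11 without NormMg-HFD replicate 1 or 3). The interaction called 0 to 1 of the 10 genes and 0 to 3 pathway genes without single mice, and 1 pathway gene each with the study's minimum and quantile normalization. The causes were not tested.

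Median centring and quantile normalization moved the share of higher genes among all called genes from 64.0% to 53.7% and 53.7% for fat at normal Mg and from 78.3% to 38.9% and 45.8% for fat at low Mg. Signs turned only for uncalled genes. For fat at low Mg the log2 fold changes turned to -0.019 and -0.047 for Tlr3 and to -0.0068 and -0.00269 for Myd88 with these scalings, to -0.016 for Tlr4 with quantile normalization, to 0.076 for Tlr1 and 0.28 for Cd14 in the 16 mice, and Cd14 ranged from -0.22 to 0.13 without single mice. For Mg on the LFD median centring and quantile normalization gave 0.093 and 0.12 for Tlr3, 0.0086 and 0.11 for Tlr8, 0.00092 and 0.19 for Tlr13 and 0.10 and 0.094 for Myd88, quantile normalization gave 0.071 for Tlr2 and 0.11 for Tlr9, and the 16 mice gave -0.0085 for Tlr7 and -0.12 for Cd14. Without single mice these ranged from -0.072 to 0.28 for Cd14, -0.084 to 0.084 for Myd88, -0.028 to 0.37 for Tlr1, -0.29 to 0.058 for Tlr13, -0.21 to 0.043 for Tlr2, -0.070 to 0.036 for Tlr3, -0.071 to 0.19 for Tlr4, -0.19 to 0.099 for Tlr8 and -0.21 to 0.020 for Tlr9.

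No pairing of mice by replicate number was seen, although these values cannot exclude it. Residuals of same-numbered mice correlated from -0.22 to 0.45 over 27 pairs (median -0.0091), with 6 over 0.1. Those of differently numbered mice correlated from -0.52 to 0.31 over 108 pairs (median -0.0014), with 18 over 0.1. With the replicate number as a block, 8 of the 10 genes were called for fat at normal Mg (Tlr3 lost, adjusted p = 0.052) and 5 for Mg on the HFD, and Myd88 for Mg on the LFD turned to 0.015.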
